A study of Dreissena polymorpha with 10 samples.

Results

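In the zebra mussel, Dreissena polymorpha, a bivalve of rivers and lakes that was sampled at Riba-Roja (Ebro River), 14 of the 3541 transcripts on the array were low in February and higher in both June and September. They were chosen on these signals. A transcript had to be flagged as well above background by the extraction software on at least 6 of the 8 June and September arrays. Its mean log2 signals in June and in September each had to lie at least 1 above both February arrays, and these means had to lie within 1 of each other. The differences from February are therefore given as a description, with no test.

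The arrays hold RNA of animals of both sexes taken from a natural population, with a part of the body, and no single organ, named as the tissue in the labels. February, which the labels call pre-spawning, has 1 array titled female and 1 titled male. June (spawning) and September (gonad resorption) have 4 arrays each, 2 per sex. No animal is labelled as treated or as a mutant, so the groups differ by month and sex, and month cannot be told apart from anything else that differed between those dates. How many animals lie behind an array is not given, so the p-values measure only the spread between arrays, which may be technical. The descriptions of the 2 February arrays end in M for the array titled female and in F for that titled male, the reverse of the other arrays, and the titles are used below.

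Zebra mussels have separate sexes and shed eggs and sperm into the water. Gametes ripen in the gonad before the spawning season, are released in it, and what is left is resorbed afterwards, so the share of gonad cells in a body sample can follow the reproductive year. Temperature and food supply, which also follow the year, set much of a mussel's growth and metabolism. In such samples of mixed tissue, fewer cells of a type and less RNA per cell cannot be told apart. The name the array gives to each of the 14 is a sequence accession. Of the 3541 names 0 were found among RefSeq's genes for assembly UMN_Dpol_1.0, so no gene, function or genome position is given to any of the 14. For the same reason the tissue could not be checked against marker genes.

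Signals are given as relative log2 signals: the log2 of the scanner's background-corrected intensity minus the array's 75th percentile over 2740 probes with a detected signal on all 10 arrays. A value of -6 thus lies 6 doublings below that percentile, and values of different probes are not set against each other. September female replicate 2 had a mean signal of 766.3, against 8138 to 10999 on the other arrays, and 22.4% of its probes above background, against 28.9% to 36.0%. That array lay on slide 3 and September male replicate 2 on slide 2, both scanned on another date than slide 1, and all other arrays lay on slide 1. Of the 14 transcripts, 14 were above background on 3 June arrays and 3 September arrays, 12 on June female replicate 2, 9 on September female replicate 2, 9 on the February array titled female and 8 on that titled male.

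Of the 3541 transcripts, 1563 were detected on at least 6 of the 8 June and September arrays, and the 14 are 0.896% of these. A June mean at least 1 above both February arrays was found for 76 detected transcripts, and such a September mean for 202. Both held for 32, of which 17 were more than 1 higher in September than in June and 1 was more than 1 higher in June. The 14 that remain have a median June minus February difference of 2.03 and a median September minus February difference of 2.52, against 0.07 and 0.15 over all 1563 detected transcripts. Among the 14, the June difference ran from 1.37 to 4.56 and the September difference from 1.38 to 5.53. All 4 June arrays lay above both February arrays for 14 transcripts, and all 8 June and September arrays did so for 11. Among these 11, EY435697, EF526096, EY434502 and EY435232 were not above background on either February array or on September female replicate 2. Part of their order thus compares signals that were not above background. Over all detected transcripts 7.61% had all 8 arrays above both February arrays, and no such share is given for the 4 June arrays. Nothing is read from either count because the rule used this contrast.

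**Figure D1:**
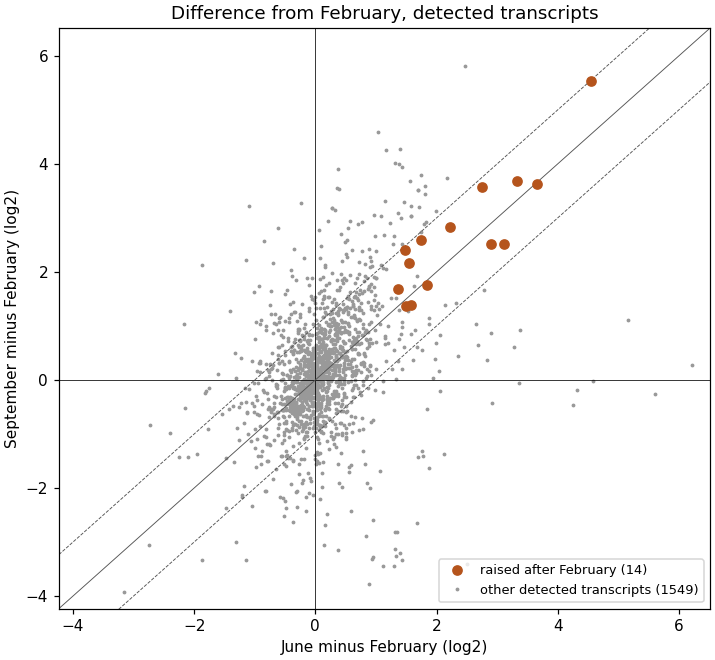
Difference from February in log2 signal for each detected transcript, June on the x axis and September on the y axis. The 14 transcripts (large points) lie between the dashed lines, where the June and September means are within 1 of each other, with June differences of 1.37 to 4.56.

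The signal in February was not well above background on either array for 5 of the 14 transcripts, so their folds were taken over a February floor. For each February array the floor is the probe's own signal or the lowest detected signal on that array, whichever is higher. The lowest detected signal belongs to another probe and need not be this probe's own limit of detection, so these folds are not lower bounds. They hold for the software's own background correction. Where normexp, another background correction, moved a difference from February by over 1.5 times, its value is given.

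EY434967 had the largest excess, defined as the lower of the June and September means minus the higher February array (3.71). Its relative log2 signals were -11.92 and -10.22 on the February arrays titled female and male. In June they were -6.27 and -6.04 in females and -6.39 and -7.34 in males, and in September -5.01 and -5.47 in females and -6.31 and -5.36 in males. All 8 later arrays lay at least 2.88 above both February arrays. The transcript stood 16.8-fold in June and 33.0-fold in September over the February floor. With normexp its log2 differences from February were 2.66 in June and 3.90 in September, against 4.56 and 5.53. Its September minus June difference of 0.97 lies just inside the limit of 1, and the arrays of these months overlap.

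EY435697 gave -12.60 and -12.02 in February. June values were -9.00 and -9.02 in females and -8.47 and -9.42 in males, and September values -9.09 and -8.29 in females and -8.75 and -8.40 in males. The lowest later array lay 2.61 above the higher February array, and June and September overlap. June stood 3.68-fold over the February floor. In September 3 of 4 arrays were above background, and the dim September female replicate 2, which was not, held the highest value. September stood 4.69-fold over the February floor by all 4 arrays and 4.33-fold by those 3. With normexp the differences were 1.27 in June and 1.95 in September, against 3.33 and 3.68.

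EF526096 was -11.23 and -12.01 in February. In June the females stood at -7.77 and -10.22 and the males at -9.42 and -8.09, with 3 of 4 arrays above background. In September the females stood at -7.84 and -8.13 and the males at -8.17 and -8.06, again with 3 of 4 arrays above background. The 4 September arrays kept within 0.33 of each other, while the 4 June arrays spread over 2.44. By all 4 arrays of a month June stood 3.96-fold and September 7.02-fold over the February floor, and by the 3 arrays above background 5.40-fold and 7.15-fold. With normexp the differences were 0.95 in June and 1.80 in September, against 2.75 and 3.57.

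EY434502 was the one of these 5 with lower signals in September than in June on average, by a log2 difference of -0.60. It measured -13.20 and -11.66 in February, -8.96 and -9.00 in June females, -9.55 and -9.72 in June males, -10.53 and -10.44 in September females, and -9.13 and -9.52 in September males. The 2 September females were the lowest of the 8 later arrays, and still above both February arrays. On the dim September female replicate 2, as on both February arrays, the probe was not above background. Its intensity before scaling was 2.09 on that array, against 4.66 and 15.01 in February, so its place above February rests on the scaling. June stood 2.93-fold over the February floor. September stood 1.94-fold over the February floor by all 4 arrays and 2.19-fold by the 3 above background. With normexp the differences were 0.89 in June and 1.24 in September, against 3.12 and 2.52.

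EY435232 was close to background in every month. It measured -11.09 and -11.33 in February, -9.63 and -10.17 in June females, -9.79 and -9.77 in June males, -9.48 and -8.86 in September females, and -10.33 and -9.43 in September males. Only 6 of the 8 later arrays, the fewest the rule allows, were above background, and the highest September value, on the dim array, was not. June stood 2.03-fold and September 2.52-fold over the February floor by all 4 arrays of a month, and 2.19-fold and 2.16-fold by the 3 above background. The June difference was 0.59 with normexp, against 1.37, and the September difference 1.08 with the authors' values, against 1.68.

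**Figure D2:**
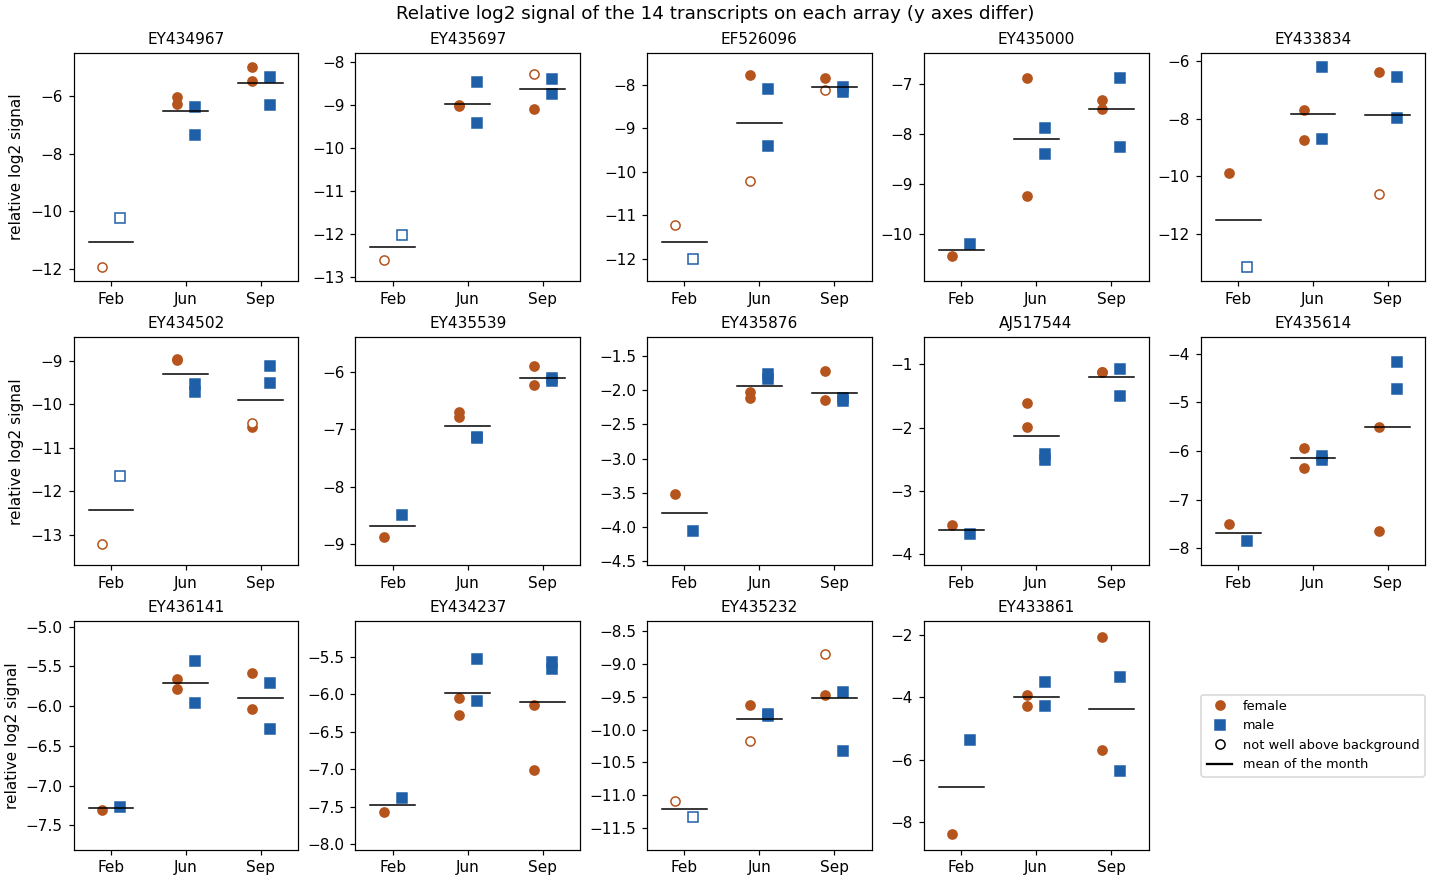
Relative log2 signal (y axis, a different range in each panel) of each of the 14 transcripts on each array, by month (x axis). Filled points are well above background, open points are not, and lines are means of the month; the 4 June arrays lie above both February arrays in every panel, while some September arrays of EY433834, EY435614 and EY433861 do not.

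One transcript, EY433834, was above background on 1 of the 2 February arrays. It had -9.89 on the array titled female and -13.12 on that titled male, which was not above background. June values were -7.71 and -8.74 in females and -8.70 and -6.23 in males, and September values -6.39 and -10.61 in females and -6.56 and -7.96 in males. September female replicate 2, the dim array and not above background for this probe, lay 0.72 below the higher February array (a difference of -0.72), so September and February overlap. With the undetected February array at its floor June stood 5.62-fold over February. The SDs were 1.18 in June (n = 4) and 1.95 in September (n = 4), against 2.28 in February (n = 2). The September minus February difference of 3.63 was 4.52 without that September array and 2.01 without the undetected February one, and the June minus February difference of 3.66 was 2.05 without that February array. With normexp the differences were 1.66 in June and 2.38 in September.

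The other 8 transcripts were above background on all 10 arrays, so that both sides of each difference were measured. In 6 of them all 8 later arrays lay above both February arrays.

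EY435876 and AJ517544 had February arrays within 0.54 and 0.13 of each other. EY435876 measured -3.52 and -4.06 in February, -2.12 and -2.03 in June females, -1.83 and -1.77 in June males, -2.15 and -1.73 in September females, and -2.12 and -2.16 in September males. June and September overlapped, at 3.60-fold and 3.37-fold over February, and the lowest later array lay 1.37 above the higher February array. AJ517544 measured -3.54 and -3.67 in February, -1.99 and -1.60 in June females, -2.51 and -2.41 in June males, -1.13 and -1.12 in September females, and -1.51 and -1.07 in September males. The 3 months did not overlap, with September highest, and June was 2.79-fold and September 5.28-fold higher than February.

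EY435539 showed the same order of months. Its February values were -8.88 and -8.49. June females stood at -6.70 and -6.79 and June males at -7.14 and -7.13, while September females stood at -6.23 and -5.89 and September males at -6.10 and -6.16. No June array reached the lowest September array, and June was 3.35-fold and September 6.02-fold higher than February. The June difference was 1.11 with normexp, against 1.74. EY435539 and AJ517544 were the 2 of 14 transcripts whose June and September arrays did not overlap, with September minus June differences of 0.85 and 0.92 that the rule capped at 1. Over all detected transcripts 14.8% had all 4 September arrays above all 4 June arrays, and nothing is read from the 2, since the rule limits this difference.

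EY435000 measured -10.45 and -10.20 in February, -9.25 and -6.89 in June females, -7.89 and -8.40 in June males, -7.32 and -7.51 in September females, and -6.88 and -8.27 in September males. The 2 June females marked both ends of a June range of 2.36, and no later array fell to the February level. June was 4.65-fold and September 7.09-fold higher than February. With normexp the differences were 0.93 in June and 1.82 in September, against 2.22 and 2.83.

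EY436141 and EY434237 had close means in September and June, with differences of -0.19 and -0.11. EY436141 measured -7.31 and -7.26 in February, -5.78 and -5.65 in June females, -5.43 and -5.95 in June males, -6.03 and -5.58 in September females, and -6.28 and -5.70 in September males. That is 2.99-fold in June and 2.61-fold in September over February. EY434237 measured -7.57 and -7.38 in February, -6.05 and -6.27 in June females, -6.09 and -5.53 in June males, -6.15 and -7.02 in September females, and -5.57 and -5.67 in September males, with folds of 2.81 and 2.60 over February. Its lowest later value, on the dim September array, was still 0.37 above the higher February array. Scaled to the percentile over all probes, the September minus February difference was 0.92 for EY436141 and 0.91 for EY434237, against 1.39 and 1.38.

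EY435614 and EY433861 had tight June values and wide September ones. EY435614 measured -7.50 and -7.85 in February, -6.34 and -5.93 in June females, -6.10 and -6.17 in June males, -5.51 and -7.64 in September females, and -4.72 and -4.16 in September males. September female replicate 2 lay between the 2 February arrays, and the September SD was 1.52 (n = 4) against a June SD of 0.17 (n = 4). June was 2.91-fold and September 4.50-fold higher than February, and without September female replicate 2 the September minus February difference was 2.87, against 2.17 with it.

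EY433861 is the weakest case by the rule, with an excess of 1.01. Its February arrays measured -8.39 and -5.37, further apart than any month's mean from another. June females had -3.93 and -4.26 and June males -4.26 and -3.49, while September females had -5.69 and -2.06 and September males -3.34 and -6.35. In September 2 of 4 arrays, 1 of each sex, lay below the February array titled male, and the September SD was 2.00 (n = 4) against a June SD of 0.36 (n = 4). Without September female replicate 2, which held the highest value, the September minus February difference was 1.74, against 2.52 with it. The February arrays moved the differences further. Without the one titled female June minus February was 1.38 and September minus February 1.01, and without the one titled male they were 4.40 and 4.03, against 2.89 and 2.52.

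The next members above the threshold of 1 were EY435232 (excess 1.25) and EY434237 (1.28). Just outside it, with all other criteria met, were EY435763 (0.97), AM229978 (0.95) and EY436388 (0.95). EY435763 had means of -7.68 in June and -7.94 in September against -8.90 on the higher February array. No gap in the values marks the border between these transcripts and the 14.

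The array carries 49 other probes for the 14 transcripts, which measure the same 10 RNA samples and so add no replicates. Of these, 28 probes of 12 transcripts were above background on at least 2 arrays. Since a probe could pass that filter only through months in which it was bright, the number of them that were higher after February is not support for the pattern. EF526096 had 3 such other probes, with June minus February differences of 1.86 to 2.43 and September minus February differences of 3.19 to 3.44. The 3 of EY434967 ranged more widely, from 1.79 to 4.08 in June and from 2.78 to 5.24 in September over February. Both other probes of EY435876 gave 1.77 and 1.83 in June and 1.58 and 1.79 in September. Of the 28 probes, 20 had an excess of at least 1, a count under the same limit. It does not ask for June and September within 1 of each other, and some of the 20 were further apart. A probe of EY434967, for instance, gave 4.08 in June and 5.24 in September. The only passing probe of EY435232 gave 0.79 in June and 0.52 in September, with an excess of 0.35. That of EY434502 had an excess of 0.65, and 1 passing probe of AJ517544 had one of -0.18. For EY433861, 2 of 3 other probes passed the filter and gave 2.36 and 2.40 in June and 3.66 and 3.75 in September. Their excesses were -0.03 and -0.04, with June means just below the higher February array. In both, September lay more than 1 above June. The third probe gave 0.35 and 0.37. For EY433834 and EY436141 none of the 4 other probes passed the filter, so the values of each rest on 1 probe.

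**Figure D3:**
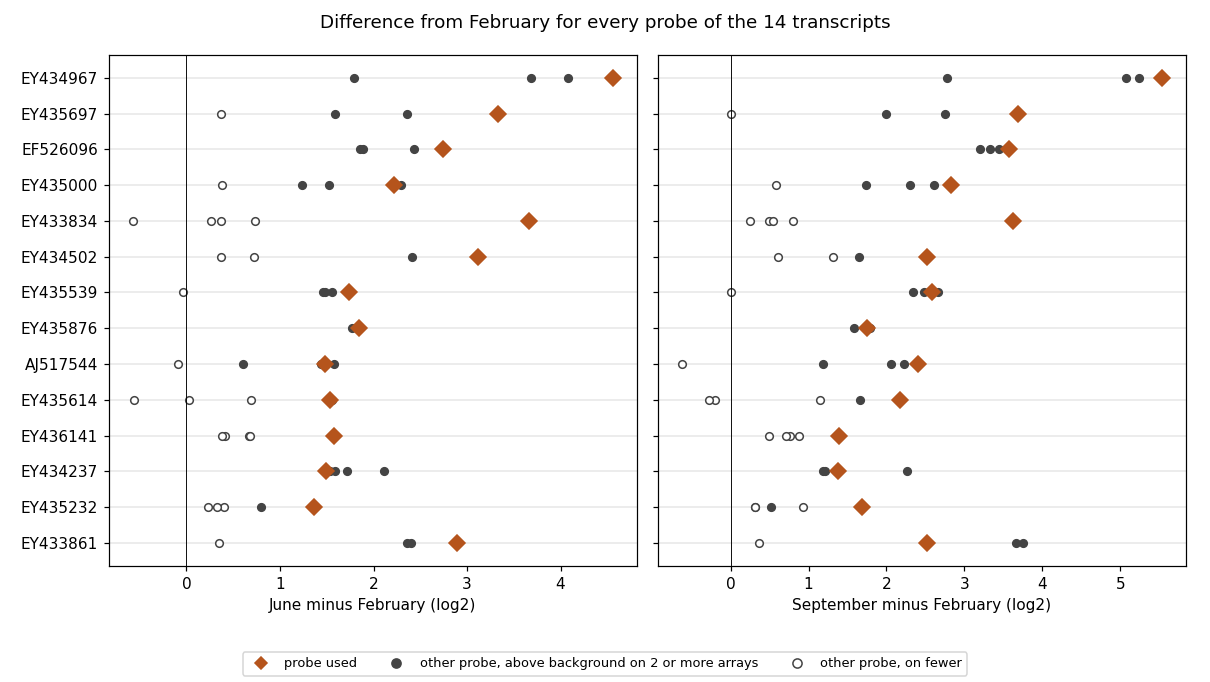
Log2 difference from February in June (left) and September (right) for every probe of the 14 transcripts, listed by falling excess. Diamonds are the probes used, filled circles other probes above background on 2 or more arrays, and open circles probes above background on fewer; EY433834 and EY436141 have only open circles beside their diamonds.

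Sex was not used by the rule and could be tested. Across June and September, with both months weighted the same, 7 of the 14 transcripts had higher mean signals in females and 7 in males, and the median female minus male difference was 0.02, against -0.02 over all 5139 tested probes. In the limma fit to all 10 arrays, 0 of the 14 were called at an adjusted p under 0.05, against 0% of all tested probes, and 0 of the 14 had an unadjusted p under 0.05, against 5.04% of all (259 probes). The differences ran from -1.07 in EY435614 to 0.65 in EY434967. EY434237 had a difference of -0.66 (SE 0.278, limma adjusted p = 0.994), with means of -6.16 in June females and -5.81 in June males, and of -6.58 in September females and -5.62 in September males. The 95% intervals were narrowest in EY435539 (-0.22 to 0.68), EY435876 (-0.51 to 0.43) and EY434502 (-0.72 to 0.22). For EY433834 the interval ran from -3.75 to 1.75, so even large sex differences were not detectable at this spread. Slides 2 and 3 held 1 array each, so a fit with slide as a block leaves 1 September array per sex, and no count is given from it.

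**Figure D4:**
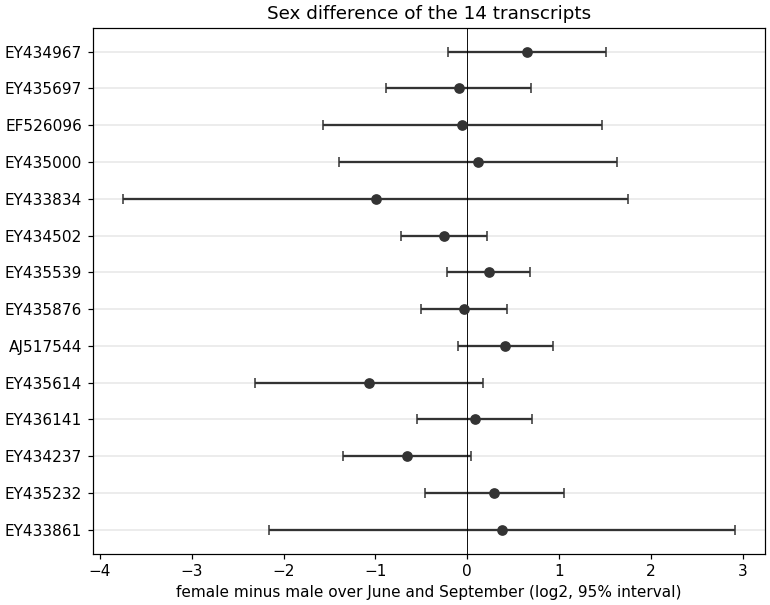
Female minus male difference in log2 signal over June and September for each of the 14 transcripts (x axis), with 95% intervals from the limma fit to 10 arrays. Points lie between -1.07 and 0.65, and all 14 intervals include 0.

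The sex difference itself was also compared between September and June. EY434502 showed the clearest contrast: both June females (mean -8.98) lay above both June males (mean -9.63), while both September females (mean -10.48) lay below both September males (mean -9.33). The difference between the 2 sex differences was -1.81 (SE 0.379, limma adjusted p = 0.946), so it was not called after adjustment, and 1 of the 2 September females is the dim array, on which the probe was not above background. EY435614 had means of -6.57 in September females and -4.44 in September males, against -6.14 and -6.13 in June, a change of -2.13 (SE 0.998, limma adjusted p = 0.946). Without the dim array, at -7.64 against -5.51 on the other September female array, the change was -1.07, while that of EY434502 was -1.85. In all, 0 of the 14 were called, against 0% of tested probes, and 1 of the 14 had an unadjusted p under 0.05, against 4.63% of tested probes (238 probes).

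The 2 February arrays differed by a median of 0.46 in absolute log2 signal over the 14 transcripts, against 0.37 over all detected transcripts, with the array titled female higher for 6 of the 14 and the other one higher for 8. The spread between arrays of 1 month had a median SD of 0.37 in June and 0.57 in September over the 14, against 0.29 and 0.43 over all detected transcripts. September female replicate 2 was the lowest September array for 3 of the 14, the highest for 6 and between the others for 5. On the 8 arrays of slide 1 alone the medians were 2.04 for June minus February and 2.54 for September minus February, and 16 transcripts met the rule, 10 of them among the 14. EY435000, EY433834, EY435614 and EY433861 did not meet it there.

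The membership rests heavily on having 2 February arrays. With the February array titled male alone as the reference month 83 transcripts met the rule, and 36 with that titled female alone, both times with all of the 14 among them. Leaving out a February array makes the rule easier to meet, so that all 14 were kept was all but fixed. The same holds for dropping the limit between June and September. Of 22 other settings, these included, EY435697 met the rule in 20 and EY435000, EY433834 and EY435876 in 19 each. At the low end, EY434967 met it in 15, EF526096 in 13, EY433861 in 12 and EY435232 in 9. EF526096 and EY435232 were above background on 6 of the 8 later arrays, and each failed the rule when any 1 of those 6 was left out, since too few detected arrays then remained.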

How the data were processed

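Each 1-colour array was read with Agilent Feature Extraction software, version 10.5.1.1 per the file headers, which gave the deposited processed intensity of each spot, a signal corrected for background within the array. A second deposited table holds log2 values (column medians 2.74 to 3.02) that tracked the log2 processed intensity of the same array at a correlation of 0.988 or higher. Its scaling and centring between arrays are unknown, so it served as an alternative.

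Control spots were left out. Log2 intensities of the 15208 other spots were averaged for each of 13654 probes, and a probe counted as above background on an array when the flag was set for over 50% of its spots. No spot was saturated (0). For each transcript name the probe of highest mean was kept. The members, lists and tests were chosen with earlier results of these data known. All 14 members came under the naming rule, which took the largest excess, the brightest, the largest and smallest sex differences, those with the highest February signals and those nearest the threshold. Sex comparisons used limma 3.58.1 (R 4.3.3) on the 5139 probes above background on at least 2 of 10 arrays, with 1 mean per month and sex, 4 residual degrees of freedom and Benjamini-Hochberg adjustment. All residual information comes from June and September. On simulated arrays of 5139 probes a log2 sex difference of 2 was recovered in 50.0% of changed probes and one of 1 in 10.6%. The number of arrays limits the precision. Plots come from matplotlib 3.10.9. Probe sequences were not used here.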

Additional observations from a re-analysis of the deposited data

Results flagged for a closer look

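Among 28 groups of 4 arrays (14 transcripts in June and in September), 2 held an array far from the other 3, where chance gives about 1 in 20. EY435876 had -1.73 on September female replicate 2, with the nearest September array at -2.12. That array had a mean signal of 766.3, and its part in the value was not tested. AJ517544 had -1.51 on September male replicate 1, with the nearest September array at -1.13, and all 4 September arrays still lay above the 4 June arrays.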

How the results depend on the processing

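Leaving out 1 array gave 12 to 83 transcripts that met the rule, the high values being 83 without February female replicate 1 and 36 without February male replicate 1. Demanding detection on all 8 later arrays left 9, an excess of 1.5 left 7, an excess of 2 left 5, and no limit between June and September gave 32. With the median over a transcript's probes above background on at least 2 arrays, in place of its brightest probe, 16 met the rule. Only 9 of the 14 were among them. EY434967, EY435697 and EF526096, which had the largest excesses, did not meet it there, nor did EY435539 and EY433861. Membership thus depends on keeping the brightest probe. Other scalings gave 10 or 11, of which 8 of the 14 (quantile normalization) or 9 (the percentile over all probes, and the authors' values) were the same. The percentile over all probes moved the median June minus February difference of all tested probes to -0.22 from 0.10, and the September one to -0.26 from 0.21. It moved the median September minus February difference of the 14 to 2.05. Normexp background correction of the median spot signals gave 11 transcripts, 7 of them among the 14. Its medians were 1.23 for June minus February, 1.88 for September minus February, 0.78 for September minus June and 0.46 for females minus males; the cause was not tested. No difference of any of the 14 from February turned sign in these settings. The rule asked for means at least 1 above both February arrays, so a turned sign was unlikely from the start. Nothing is read from its absence. Probes called for sex numbered 0 to 4 when 1 array was left out, with 4 without September male replicate 1 and none of them among the 14. Replicate numbers did not pair the arrays (correlations of -0.33 to 0.34 between groups), and with a replicate block 0 probes were called for sex and the median female minus male difference was 0.02. Probes with an unadjusted p under 0.05 for sex numbered 259, against 114 with normexp and 694 without September female replicate 1, and for sex by month 238, against 87 and 833. Signals near background limit the 5 transcripts not detected in February.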

Other observations

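The rule turned round, added after the data were seen, asks for transcripts detected on both February arrays whose June and September means each lie at least 1 below both of them and within 1 of each other. It was met by 13 of 1555 transcripts, a share of 0.836%, beside the 14 that were higher after February. The balance moved with the scaling. With the percentile over all probes 11 transcripts were higher and 24 lower after February, with quantile normalization 10 and 20, with the authors' values 10 and 22, and with normexp background correction 11 and 4.

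Probes named RXR, with no further description, did not meet the rule. The brightest of them was above background on 6 of 10 arrays, with mean relative log2 signals of -9.99 in February, -10.90 in June and -9.95 in September.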
